A study of Mus musculus with 8 samples.

Results

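The UDP-glucuronosyltransferases described here were 10 genes, Ugt1a1, Ugt1a5, Ugt1a6a, Ugt1a6b, Ugt1a9, Ugt2a3, Ugt2b1, Ugt2b5, Ugt2b34 and Ugt2b36. They were chosen by name, and not by a measured value, out of 35975 genes to which the deposited transcripts could be assigned. Earlier results of these data were known when they were chosen. All 10 passed the filter on low counts that left 12883 genes for testing. Livers came from C57BL/6 mice with a cannula in the portal vein, which delivered fluid from an implanted osmotic pump for 2 weeks. The normal saline group (n = 4) received the vehicle alone, and the 4-HPAA group (n = 4) received 4-hydroxyphenylacetic acid dissolved in saline at 55 mM. Per the study's methods, which cover all of its experiments together, mice were C57BL/6J of both sexes, 8 to 10 weeks old, and were housed singly after surgery. Both groups therefore shared the surgery, the pump and the single housing, and no liver from a mouse without surgery is analysed here. The labels do not give the sex of each mouse. In all 8 libraries the Y-linked genes Ddx3y, Uty, Kdm5d and Eif2s3y were detected, with a summed level of 152 to 180 CPM (counts scaled to library size), so no library lacked Y-linked RNA.

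UDP-glucuronosyltransferases sit in the membrane of the endoplasmic reticulum and transfer glucuronic acid from UDP-glucuronic acid onto phenols, bilirubin, steroids, bile acids and many drugs. The conjugates are soluble in water and leave the cell through export pumps into bile or blood. 4-HPAA is a phenolic acid that gut bacteria make from tyrosine and from plant polyphenols, and phenols are classical acceptors of glucuronic acid. The question put to these genes was whether livers that received 4-HPAA through the portal vein held different amounts of the transcripts for the conjugating enzymes.

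The 5 Ugt1a members are read from 1 locus on the plus strand of chromosome 1 (GRCm38). As a rule each gene has its own first exon, which encodes the part of the enzyme that binds the acceptor. This exon is joined to exons that encode the part that binds UDP-glucuronic acid. In the main transcripts compared here, however, Ugt1a6a and Ugt1a7c, which is not a member, had an upstream exon with the same end, 88139331. In the annotation all 9 genes of the locus shared exon 2 (chr1:88215044-88215175), exon 3 (chr1:88215795-88215882) and exon 4 (chr1:88216138-88216357), and all 9 shared the start of exon 5 at 88218127. The junctions are shown because only reads from exons before this point, or across it, can tell the members apart. The lower-case letters are the last 20 bases before the junction, and the capitals are the first 20 bases of the shared exon 2.

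Ugt1a9, first exon ending at 88071678: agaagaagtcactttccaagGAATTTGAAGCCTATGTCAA
Ugt1a6b, upstream exon ending at 88107799: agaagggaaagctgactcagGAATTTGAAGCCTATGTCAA
Ugt1a6a, upstream exon ending at 88139331: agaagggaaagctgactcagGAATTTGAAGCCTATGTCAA
Ugt1a5, first exon ending at 88166903: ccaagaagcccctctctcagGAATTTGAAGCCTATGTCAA
Ugt1a1, first exon ending at 88212871: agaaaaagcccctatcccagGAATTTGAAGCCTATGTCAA

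The 20 bases of Ugt1a6a and Ugt1a6b were the same, and those of Ugt1a9 and Ugt1a5 each differed from Ugt1a1 at 5 positions. Before the shared exons, Ugt1a6a and Ugt1a6b were identical at 97.4% of aligned bases. kallisto, the program that estimated the deposited counts, matches reads by words of 31 bases by default. Of the 31-base words in the main transcript, 41.5% were found in no other gene for Ugt1a1, 34.7% for Ugt1a5, 32.2% for Ugt1a9 and 14.9% for Ugt1a6b. For Ugt1a6a the share was 0%, since every word of its main transcript was also in an annotated transcript of Ugt1a7c. How counts were divided among the Ugt1a genes, and most of all between Ugt1a6a, Ugt1a6b and Ugt1a7c, is thus an estimate, whereas the sum over the locus does not depend on that division.

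The other 5 members lie on the minus strand of chromosome 5 (GRCm38), each with 6 exons in its main transcript. Ugt2b34 spans 86889767 to 86906937, Ugt2b1 86916638 to 86926530, Ugt2b36 87065927 to 87092555, Ugt2b5 87124960 to 87140318 and Ugt2a3 87324972 to 87337195. Words found in no other gene made up 99.2% of Ugt2b1, 95.8% of Ugt2b34, 92.0% of Ugt2a3, 86.5% of Ugt2b36 and 43.6% of Ugt2b5. Ugt2b5 shared 44.9% of its words with Ugt2b38, a gene with 95.7% identical bases over the aligned transcript.

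Expressed as TPM, a level scaled for transcript length, Ugt2b5 was the highest of the 10 members, at 763 ± 75.3 (SD over the 8 livers). Ugt2b36 followed at 559 ± 62.8 TPM and Ugt1a1, the enzyme that conjugates bilirubin, at 426 ± 50.3 TPM. The TPM level of Ugt2b5 was 147th, that of Ugt2b36 196th and that of Ugt1a1 261st among the 35975 genes. The steps from Ugt2b5 to Ugt2b36, from Ugt2b36 to Ugt1a1 and from Ugt1a1 to Ugt2b1 held in 8 of 8 livers. Each had an adjusted p of 0.018 over 9 neighbouring pairs (exact paired permutation test over the 8 libraries, two-sided). The pairs were formed by sorting on mean TPM over these same 8 livers. These p-values, here and below, thus describe the order and do not test it independently.

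Ugt2b1 (282 ± 47.4 TPM), Ugt2b34 (244 ± 38.0 TPM) and Ugt2a3 (216 ± 22.2 TPM) came next, and the neighbours in this order did not differ beyond their spread (exact paired permutation test, adjusted p = 0.079 and 0.070). Below them was a gap of 1.97-fold to Ugt1a9 (exact paired permutation test, adjusted p = 0.018). The remaining members were Ugt1a9 (110 ± 17.2 TPM), Ugt1a6b (88.6 ± 10.5 TPM), Ugt1a6a (82.2 ± 6.94 TPM) and Ugt1a5 (69.3 ± 33.0 TPM), all within the upper 1379 genes. Of these neighbours, the estimate for Ugt1a6b exceeded that for Ugt1a6a in 7 of 8 livers (exact paired permutation test, adjusted p = 0.028). The main transcript of Ugt1a6a held no sequence word of its own. Its order against Ugt1a6b thus depends on how kallisto divided the shared reads, which this test does not assess. Ugt1a9 over Ugt1a6b (adjusted p = 0.070, same exact test) and Ugt1a6a over Ugt1a5 (adjusted p = 0.102, same exact test) did not pass.

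The 10 members together held 0.330% to 0.411% of each library's counts. The group means were 0.366% ± 0.0390 with saline and 0.370% ± 0.0181 with 4-HPAA (SD, n = 4 each, exact permutation test, two-sided, p = 0.857). The 5 Ugt1a members made up 99.1% to 99.5% of the counts of the Ugt1a locus, and the 4 Ugt2b members 92.8% to 95.2% of those of the 7 Ugt2b genes. Total counts per library were 29559978 to 30673398, so the least abundant member, Ugt1a5, still rested on 1557 to 5665 estimated counts per liver.

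Between the groups, none of the 10 members passed the test (0 of 10 at an adjusted p of 0.05), and 0% of the 12883 genes tested did (edgeR, quasi-likelihood, p-values adjusted over all genes). No member was under an unadjusted p of 0.05 either, where 225 genes, or 1.75% of those tested, were. DESeq2 called 2 of the 12883 genes (0.0155%), Ggnbp1 and Zfp36l2, and neither was a member. The saline and 4-HPAA livers overlapped in every one of the 10 members, while 154 genes (1.2%) had groups that did not overlap. The fitted difference was above 0 for 6 members and below 0 for 4, beside 50.4% of all genes above 0. The median size of the log2 difference was 0.07 among members and 0.07 among all genes. The labels number the samples as replicates without naming the mouse of each. Each sample is called a liver here, and the p-values measure the spread among these libraries. In a bulk liver sample, fewer cells that express a gene and less of its RNA per cell cannot be told apart.

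**Figure D1:**
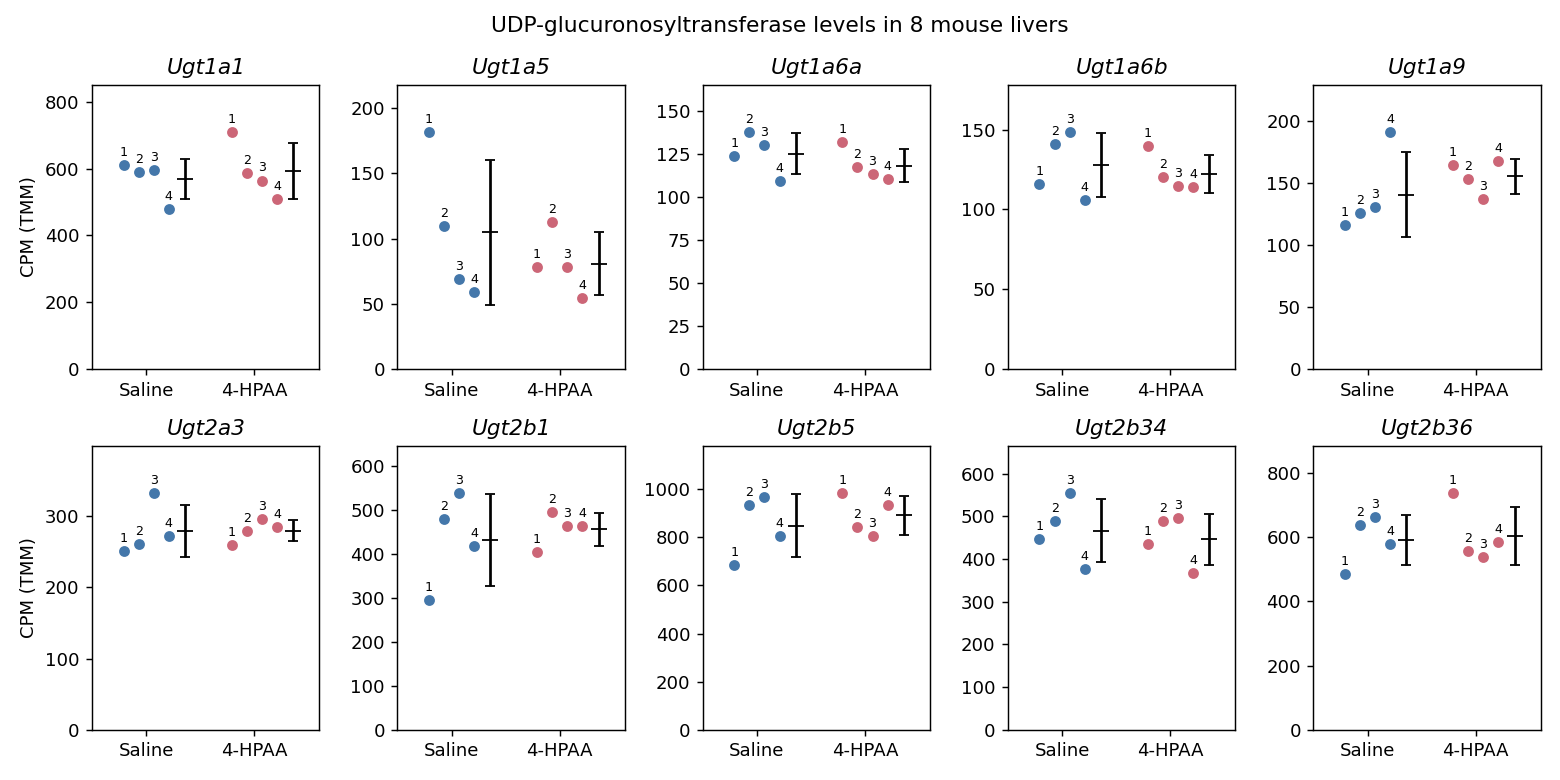
Level of each of the 10 genes in CPM with TMM normalization (y axis, from 0) in the saline and the 4-HPAA livers (4 each), where digits are replicate numbers and the bar beside each group is the mean ± SD. The groups overlap in all 10 panels, and the widest spread is that of Ugt1a5 in the saline group, 59.0 to 182 CPM.

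Ugt1a1 is the bilirubin-conjugating enzyme and the most abundant of the locus. Its level was 612, 590, 597 and 479 CPM in saline replicates 1 to 4. In 4-HPAA replicates 1 to 4 it was 709, 588, 565 and 509 CPM. The highest liver had received 4-HPAA and the lowest saline, with the other 6 in between. The log2 fold change, 4-HPAA over saline, was 0.06 ± 0.12 (SE, here and for the other genes, 95% interval -0.21 to 0.33, edgeR adjusted p = 1.00), or a fold of 1.04 with an interval of 0.862 to 1.26. In both groups replicate 4 was the lowest in Ugt1a1. Both livers were also low in the sum of the pericentral hepatocyte markers Glul, Oat, Cyp1a2, Cyp2e1 and Slc1a2. The summed CPM of these 5 genes was 5825 in saline replicate 4 and 6783 in 4-HPAA replicate 4, against 8498 to 9390 in the other 6 livers. Such a sum weighs the most abundant genes most and does not give the level of each marker. None of the 5 markers was near 0 in any liver. Their part in the Ugt1a1 level was not tested.

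Ugt1a6a and Ugt1a6b encode enzymes for small planar phenols. Ugt1a6a was at 124, 138, 130 and 109 CPM with saline and at 132, 117, 113 and 110 CPM with 4-HPAA, in the order of the replicates. All 8 livers lay within a range of 1.26-fold, the narrowest of the 10 members. On the log2 scale the difference of Ugt1a6a was -0.08 ± 0.09 (95% interval -0.29 to 0.12, edgeR adjusted p = 1.00).

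Ugt1a6b was at 116, 141, 148 and 106 CPM with saline and at 140, 121, 115 and 114 CPM with 4-HPAA. Both extremes were saline livers and the 4-HPAA values fell between them. Its log2 fold change was -0.06 ± 0.12 (95% interval -0.33 to 0.20, edgeR adjusted p = 1.00).

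Ugt1a9 encodes an enzyme with a wide range of phenolic acceptors. Its level was 116, 125, 130 and 191 CPM in saline replicates 1 to 4, and 164, 153, 137 and 168 CPM in 4-HPAA replicates 1 to 4. The first 3 saline livers lay below all 4 of the 4-HPAA livers, and saline replicate 4 lay above them all. With all 8 livers its log2 fold change was 0.14 ± 0.15 (95% interval -0.19 to 0.48, edgeR adjusted p = 1.00). Without saline replicate 4 it was 0.33, at an unadjusted edgeR p of 0.008 and an adjusted p of 1.00. Saline replicate 4 and 4-HPAA replicate 4, the 2 highest in Ugt1a9, were the 2 lowest in the summed CPM of the pericentral markers given above.

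Ugt1a5 varied most from liver to liver. It was at 182, 110, 68.8 and 59.0 CPM with saline and at 78.1, 113, 78.2 and 54.5 CPM with 4-HPAA. Saline replicate 1 was 3.34-fold above the lowest liver, and the other 7 livers of both groups spread between 54.5 and 113 CPM. Ugt1a5 had a log2 fold change of -0.37 ± 0.34 with a 95% interval of -1.13 to 0.39, the widest of the members (edgeR adjusted p = 1.00). Leaving out saline replicate 1 turned its direction, to a log2 fold change of 0.03.

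The sum of the 9 genes of the locus, entered as 1 feature in a refit of the whole table, was 1161, 1111, 1083 and 953 CPM with saline and 1231, 1096, 1014 and 963 CPM with 4-HPAA. In both groups replicate 1 was the highest and replicate 4 the lowest. For the sum the log2 fold change was -0.001 ± 0.11 (95% interval -0.24 to 0.24, edgeR adjusted p = 1.00, where 0% of genes were called). As a fold, the interval ran from 0.848 to 1.18.

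Which gene the locus was read from was then compared as each gene's share of the locus counts. Ugt1a1 took 52.8% ± 1.96 with saline and 54.9% ± 2.15 with 4-HPAA (SD, n = 4 each). Ugt1a9 took 13.3% ± 4.55 and 14.6% ± 1.95, and Ugt1a5 9.52% ± 4.43 and 7.50% ± 2.03. The difference in the Ugt1a9 share, 1.22 percentage points, was 3.45 without saline replicate 4, 0.101 without saline replicate 1 and 0.251 without 4-HPAA replicate 4, and that in the Ugt1a5 share, -2.02 percentage points, was 0.0178 without saline replicate 1. Ugt1a6b (11.9% and 11.4%) and Ugt1a6a (11.6% and 11.0%) stood between Ugt1a9 and Ugt1a5. Across single livers the share of Ugt1a5 ranged from 5.66% to 15.6% and that of Ugt1a9 reached 20.1%, with the highest Ugt1a5 share and the lowest Ugt1a9 share in the same liver, saline replicate 1. No share passed the test between the groups (exact permutation test, two-sided, smallest p = 0.086, for Ugt1a7c, adjusted p = 0.579 over 9 genes). With 70 possible divisions of 8 livers into 4 and 4, this exact test cannot give a p below 0.029.

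**Figure D2:**
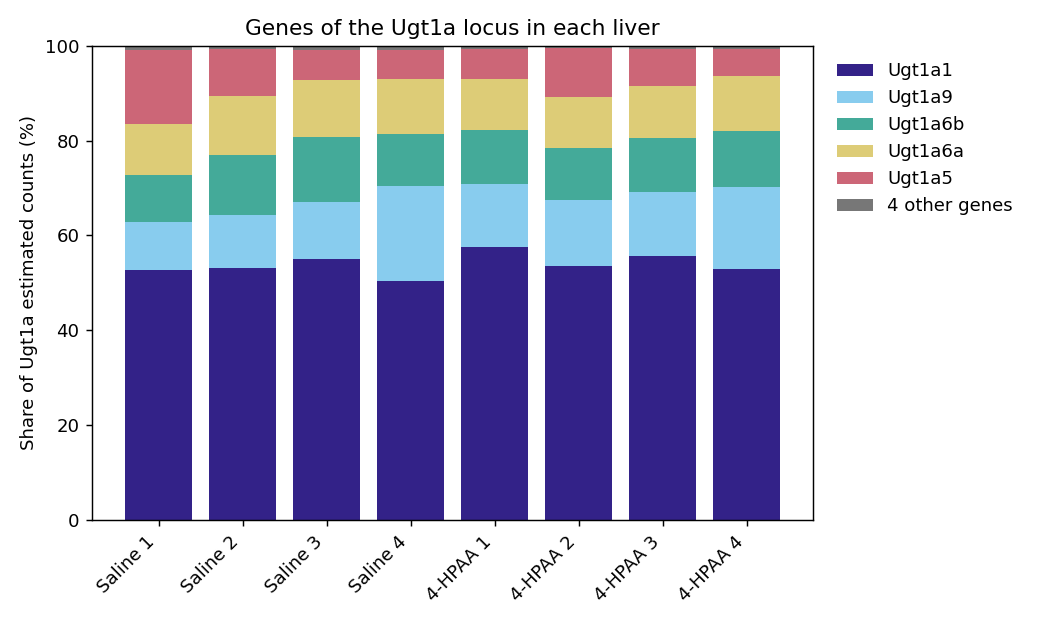
Share of the estimated counts of the Ugt1a locus (y axis, percent) that each gene took in each of the 8 livers (x axis, named by group and replicate), as bars stacked to 100%. Ugt1a1 takes 50.3% to 57.6% in every liver, whereas Ugt1a5 is widest in saline replicate 1 (15.6%) and Ugt1a9 in saline replicate 4 (20.1%).

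Among the members on chromosome 5, Ugt2b5 was the most abundant. It was at 687, 937, 969 and 805 CPM with saline and at 985, 842, 806 and 935 CPM with 4-HPAA. Saline replicate 1 was the lowest liver and 4-HPAA replicate 1 the highest. Ugt2b5 thus had a log2 fold change of 0.07 ± 0.12 (95% interval -0.21 to 0.35, edgeR adjusted p = 1.00).

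Ugt2b36 was at 485, 639, 663 and 579 CPM with saline and at 738, 559, 540 and 586 CPM with 4-HPAA. The same 2 livers were again lowest and highest. Its log2 fold change was 0.03 ± 0.13 (95% interval -0.26 to 0.33, edgeR adjusted p = 1.00).

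Ugt2b1 was at 294, 480, 539 and 418 CPM with saline and at 404, 495, 463 and 463 CPM with 4-HPAA. The 4-HPAA livers lay within the range of the saline livers, which was 1.83-fold wide. For Ugt2b1 the log2 fold change was 0.08 ± 0.17 (95% interval -0.29 to 0.44, edgeR adjusted p = 1.00).

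Ugt2b34 was at 447, 489, 555 and 377 CPM with saline and at 435, 490, 496 and 366 CPM with 4-HPAA. In both groups replicate 4 was the lowest, as for Ugt1a1. Its log2 fold change was -0.06 ± 0.14 (95% interval -0.37 to 0.24, edgeR adjusted p = 1.00).

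Ugt2a3, whose human counterpart conjugates bile acids, was at 251, 261, 333 and 272 CPM with saline and at 260, 279, 296 and 285 CPM with 4-HPAA. All 4-HPAA values lay inside the saline range. Fitted, the groups differed by a log2 fold change of 0.00 ± 0.10 (95% interval -0.22 to 0.23, edgeR adjusted p = 1.00).

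The sum of the 7 Ugt2b genes was 2009, 2726, 2916 and 2335 CPM with saline and 2731, 2560, 2454 and 2531 CPM with 4-HPAA. Saline replicate 1 was the lowest, saline replicate 3 the highest, and the 4-HPAA livers lay between them. The sum had a log2 fold change of 0.04 ± 0.13 (95% interval -0.24 to 0.32, edgeR adjusted p = 1.00), and of -0.05 without saline replicate 1.

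**Figure D3:**
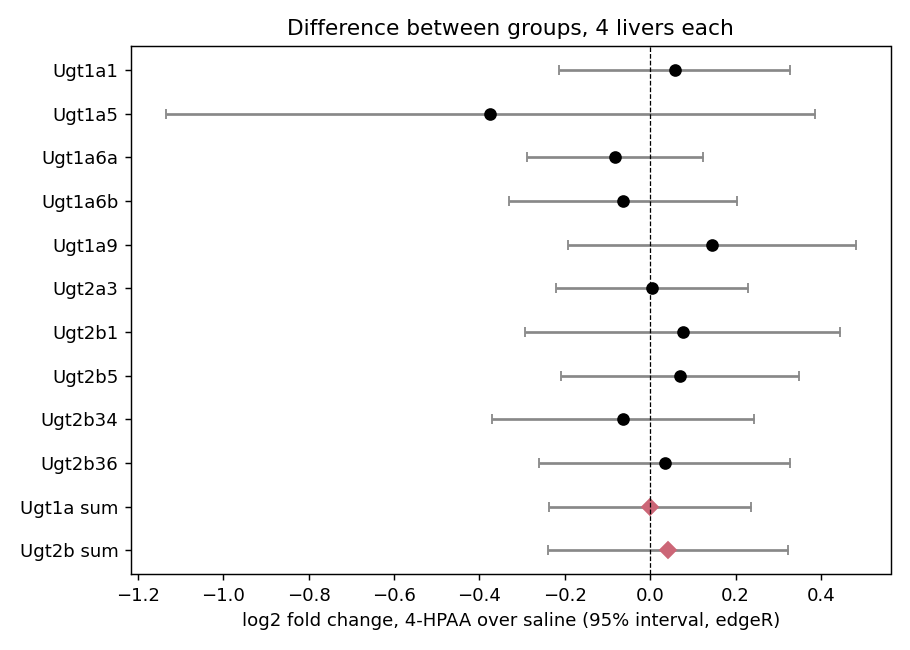
Log2 fold change of 4-HPAA over saline (x axis) for the 10 genes (circles) and the sums of the Ugt1a locus and of the Ugt2b genes (diamonds), with 95% intervals from edgeR and a dashed line at no difference. All intervals span 0, and the points run from -0.37 for Ugt1a5 to 0.14 for Ugt1a9.

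As a description, the coefficient of variation was higher among saline than among 4-HPAA livers for 8 of the 10 members, and lower for Ugt1a1 (10.7% and 14.3%) and Ugt2b36 (13.4% and 14.9%). The coefficient of variation had a median of 15.5% over the 10 members with saline and of 9.58% with 4-HPAA, beside 8.75% and 9.61% over the 2418 genes with a mean of at least 50 CPM. Saline replicate 1 was the lowest of the 8 livers in Ugt1a9, Ugt2a3, Ugt2b1, Ugt2b5 and Ugt2b36 and the highest in Ugt1a5. Ugt2b35 (93.1 against 138 to 171 CPM in the other 7 livers) and Ugt2b38 (2.15 against 9.58 to 16.5 CPM), which are not members, were also lowest in this liver. Not all other UGT genes followed. Of the Ugt1a locus counts, Ugt1a7c took its highest share in this liver (0.516%), and Ugt1a10 its lowest (0.106%) in 4-HPAA replicate 1.

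**Figure D4:**
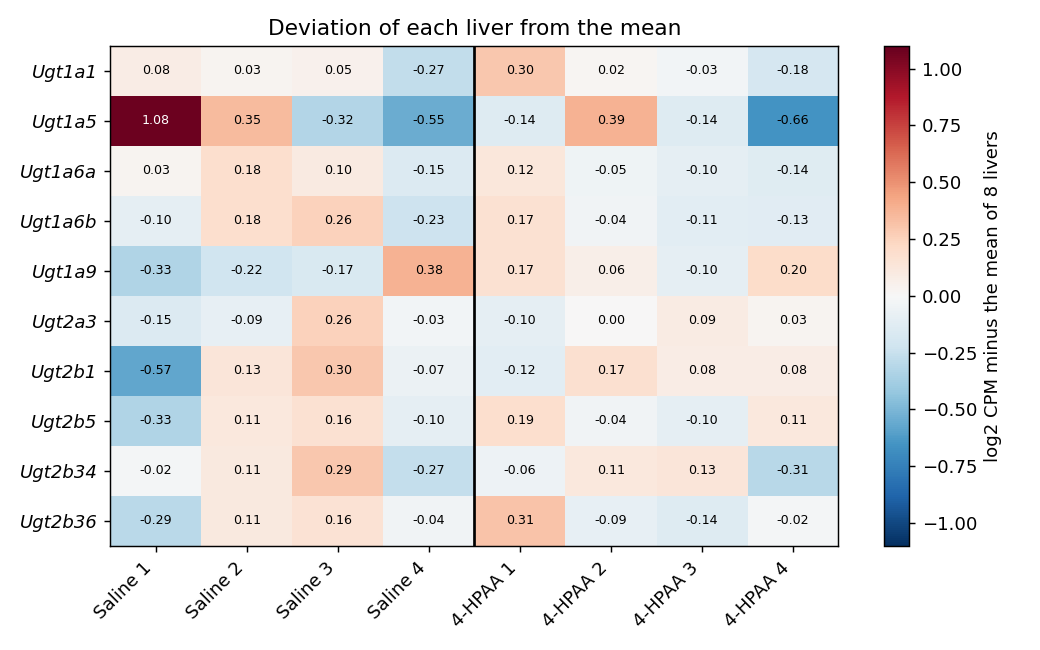
Deviation of log2 CPM from the mean of the 8 livers (colour and printed value) for each gene (rows) in each liver (columns, saline to the left of the line). Saline replicate 1 stands at 1.08 in Ugt1a5 and at -0.57 in Ugt2b1, the 2 cells of that column farthest from 0, and no row divides by group.

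Over the 8 livers, 45 pairs of members were compared by their log2 CPM. No pair passed an adjusted p of 0.05 (exact permutation test over pairings, two-sided), although 32 of the 45 correlations were positive. The closest pair was Ugt2b5 and Ugt2b36 (Pearson r = 0.91, adjusted p = 0.060, and Spearman rho = 0.93, adjusted p = 0.10, exact permutation tests), and r was 0.85 without the 2 livers farthest from the median. Next were Ugt1a6a and Ugt1a6b (r = 0.90, adjusted p = 0.10, and rho = 0.90, adjusted p = 0.103, exact permutation tests), with r = 0.85 without 2 livers. Of the 31-base words of Ugt2b5, 4.16% were also in Ugt2b36, and of those of Ugt1a6a 85.1% were also in Ugt1a6b.

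The sequences before the starts of Ugt2b5 and Ugt2b36 are shown because these genes were the closest pair in level across livers. They are the 250 bases upstream of the RefSeq start (GRCm38.p6, minus strand, written 5′ to 3′ toward the start), and the capitals mark AGGTCA, the core site that many nuclear receptors bind.

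Ugt2b5, chr5:87140341-87140590: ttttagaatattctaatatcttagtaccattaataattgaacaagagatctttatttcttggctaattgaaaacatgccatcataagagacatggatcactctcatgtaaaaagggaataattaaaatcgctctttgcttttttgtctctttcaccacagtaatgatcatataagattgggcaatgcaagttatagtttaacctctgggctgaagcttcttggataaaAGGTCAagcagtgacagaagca
Ugt2b36, chr5:87092556-87092805: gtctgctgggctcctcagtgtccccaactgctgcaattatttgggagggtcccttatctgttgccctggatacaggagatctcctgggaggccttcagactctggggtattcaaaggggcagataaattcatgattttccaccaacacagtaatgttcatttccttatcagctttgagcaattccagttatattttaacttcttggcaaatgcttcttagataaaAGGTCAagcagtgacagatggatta

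The pair was identical at 69.6% of aligned bases over this window. AGGTCA was also in the windows of Ugt2b37 and Ugt2b38, which are not members. These 2 windows were closer to that of Ugt2b5, at 88.1% and 88.3% identical bases, so the site was not particular to the pair. RefSeq gave such a window for 9 of the 10 members. For Ugt2b5, whose annotated transcript starts at 87140318, for Ugt1a9 and for Ugt2b1, the RefSeq start did not match the start of the annotated transcript. The Ugt2b1 window (86926504 to 86926753) overlapped its annotated first exon, which starts at 86926530 on the minus strand. Searched on both strands, AGGTCA was in 3 of the 9 (Ugt1a9, Ugt2b5 and Ugt2b36) and in 14.0% of 32851 promoters of the same length. GTTAAT, a core of the HNF1 site, was in 4 (Ugt1a1, Ugt1a6a, Ugt1a9 and Ugt2a3) and in 6.43% of promoters. GCGTG, the core that the AhR complex binds, was in 1 of the 9 (28.2% of promoters), TATTTGC in 1 (2.5%) and TATAAA in 0 of the 9 (12.4%). These counts describe letters in a window and not binding.

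By single transcript, the members had 18, of which 17 passed the filter, and 0 were called (edgeR, adjusted over 25977 transcripts, 0% of which were called). None of the 17 was under an unadjusted p of 0.05, as 3.85% of all transcripts were. DESeq2 called 19 transcripts of 25977 (0.0731%), none of them from a member. Ugt1a1, Ugt1a5, Ugt1a9, Ugt2a3, Ugt2b1 and Ugt2b5 each had 1 transcript in the table. Ugt1a6a was the most divided, with 58.2% to 73.8% of its counts on Ugt1a6a-202, 9.73% to 21.7% on Ugt1a6a-201 and 11.7% to 20.2% on Ugt1a6a-203, a transcript annotated with a retained intron.

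The rest of the glucuronidation pathway was described through 44 genes listed by role. Of the 41 that passed the filter, 17 were above 0 and 24 below 0 in fitted log2 fold change, 0 were called and 0 were under an unadjusted edgeR p of 0.05. For UDP-glucuronic acid supply, Ugp2, which makes UDP-glucose, stood at 370 ± 25.0 CPM with saline and 400 ± 68.0 CPM with 4-HPAA (SD, n = 4, log2 fold change 0.11, 95% interval -0.16 to 0.39). Ugdh, which oxidises UDP-glucose to UDP-glucuronic acid, stood at 117 ± 29.7 and 113 ± 14.6 CPM (log2 fold change -0.05, 95% interval -0.45 to 0.35). Slc35d1, which carries UDP-glucuronic acid into the endoplasmic reticulum, stood at 121 ± 17.9 and 119 ± 3.40 CPM (log2 fold change -0.02, 95% interval -0.25 to 0.22).

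For export, Abcc2, the pump for conjugates at the bile canaliculus, had a log2 fold change of 0.05 (95% interval -0.17 to 0.28). Abcc3, which pumps conjugates toward the blood, had a log2 fold change of 0.10 (95% interval -0.21 to 0.41). All 4 export genes were above 0 and none passed the test. Leaving out 1 library moved Abcc2 between 0.0081 (without 4-HPAA replicate 2) and 0.11 (without 4-HPAA replicate 4), and Abcc3 between 0.001 (without saline replicate 1) and 0.19 (without 4-HPAA replicate 3). Gusb, the lysosomal enzyme that removes glucuronic acid from conjugates, had a log2 fold change of -0.07 (95% interval -0.26 to 0.13). Among the 10 receptors and factors known to control UGT genes, 4 were above 0 and 6 below 0.

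The 3 pathway genes with the smallest p were minor UGT genes. Ugt1a7c was at 3.43 to 6.00 CPM with saline and 2.52 to 5.10 CPM with 4-HPAA (log2 fold change -0.52, 95% interval -1.12 to 0.08, edgeR adjusted p = 1.00). Ugt1a10 had a log2 fold change of -0.52 (95% interval -1.18 to 0.13) and Ugt2b37 of -0.58 (95% interval -1.36 to 0.20), and the groups overlapped in all 3. Without 4-HPAA replicate 1 the value for Ugt1a7c was -0.81, and without 4-HPAA replicate 4 that for Ugt1a10 was -0.89, with edgeR adjusted p-values that still did not pass. Ugt2b37 ran from -0.80 without saline replicate 1 to -0.37 without 4-HPAA replicate 4. Ugt2a1 was listed at 0 in all 8 libraries.

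The genes whose pattern over the 8 livers was closest to the Ugt1a sum, by the root mean square difference of log2 deviations among 12864 genes outside the UGT families, were Zbtb39, Uba1, Arfgap1, Trpm4 and Kdm3a (0.05 to 0.06). The sum itself deviated by a root mean square of 0.12.

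The labelled tissue was checked against hepatocyte markers, whose 6 genes summed to 100597 to 128969 CPM in every liver. The 5 red cell genes summed to 376, 2560, 247 and 308 CPM with saline and to 152, 163, 157 and 734 CPM with 4-HPAA. All 4-HPAA livers but replicate 4 lay below all saline livers, and the fitted log2 fold change was below 0 for all 5 genes (median -1.89, 0 of 5 called by edgeR). Without saline replicate 2 and 4-HPAA replicate 4, 0 members were called. The part of blood in the members' values was not tested. The 5 Kupffer cell genes summed to 71.5 to 241 CPM with saline and 64.4 to 191 CPM with 4-HPAA. The cholangiocyte genes were at 23.4 to 45.5 and 23.9 to 37.9 CPM, the endothelial genes at 88.7 to 128 and 87.8 to 146 CPM, the stellate genes at 88.5 to 154 and 94.1 to 148 CPM and the lymphocyte genes at 5.98 to 10.4 and 5.42 to 10.2 CPM. The periportal genes summed to 8143 to 11427 CPM with saline and 8542 to 10069 CPM with 4-HPAA. The fitted log2 fold change was below 0 for all 5 Kupffer cell genes (median -0.12) and all 3 lymphocyte genes tested (median -0.58). It was above 0 for all 5 endothelial genes (median 0.06) and for 4 of 5 stellate genes (median 0.12). Of the 4 cholangiocyte genes tested, 2 were above 0 and 2 below. Before adjustment 1 of the 3 lymphocyte genes passed, and after it 0 genes of these cell types were called by edgeR. Their part in the members' values was not tested.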

How the data were processed

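Liver mRNA of 8 mouse samples was prepared with a strand-specific TruSeq kit and sequenced by Illumina paired-end reads. The deposited table holds estimated counts per transcript, which the authors made with kallisto at standard settings, with no normalization. The submitters' processing notes also name FastQC 0.11.9, DESeq2, edgeR and the build GRCm38.p6. kallisto divides reads that fit several transcripts by likelihood, so values of paralogs are estimates. Here 116728 of 119414 transcripts were assigned to 35975 genes by identifier (GENCODE release M21), leaving 0.703% to 1.06% of each library's counts out, and were summed per gene and rounded. Total counts were 29559978 to 30673398 per library, with no difference between the groups past the threshold (two-sided exact permutation of the group labels, p = 0.343).

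The 12883 genes that reached 10 counts in each library entered the edgeR fit (version 4.0.16 in R 4.3.3, quasi-likelihood, TMM, no covariates), and p-values were adjusted by Benjamini-Hochberg at 0.05. CPM values use TMM library sizes, log2 CPM a prior count of 2, and TPM values were computed from the counts and annotated lengths. As alternatives, the groups were compared by DESeq2 1.42.0 and by voom in limma 3.58.1, with other normalizations and filters, each library left out, and a replicate block. Sharing of sequence was computed with Biopython 1.88. The fits were tested on simulated data, with planted differences larger than any member's fitted difference, and the outcome is not reported here. That test does not bear on differences as small as those fitted for the members. The text names all 10 members, both sums, Ugdh, Ugp2, Slc35d1, Gusb, Abcc2 and Abcc3, the 3 pathway genes with the smallest p, and the 5 genes closest in pattern to the Ugt1a sum. Those closest to the Ugt2b sum are not reported here. Further genes (Ugt2b35, Ugt2b38, Ugt2a1, Ggnbp1, Zfp36l2, CAAA01147332.1) were named after their values were seen. The members and lists were chosen with earlier results of these data known.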

Additional observations from a re-analysis of the deposited data

Results flagged for a closer look

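In 52 groups of 4 livers (each member, sum, share and named gene in each group), the highest or lowest liver was compared with the others by Dixon's ratio, which flags about 1 group in 20 by chance, and 3 were flagged. Ugt1a1 in saline replicate 4 was 479 CPM, below 590 to 612 CPM in the other saline livers. The share of Ugt1a9 in the Ugt1a locus in 4-HPAA replicate 4 was 17.5%, above 13.4% to 13.9% in the other 4-HPAA livers. Ugt1a7c in 4-HPAA replicate 1 was 5.10 CPM, above 2.52 to 2.73 CPM in the other 4-HPAA livers.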

How the results depend on the processing

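Under every one of 17 alternatives for genes, including leaving out each library, 0 of the 10 members and 0 of the 41 pathway genes were called, and under 13 alternatives for transcripts 0 member transcripts were called. Over all genes, the count called was 0 by edgeR (225 at an unadjusted p under 0.05), 0 by limma-voom and 2 by DESeq2, and it ran from 0 to 1 when 1 library was left out (CAAA01147332.1, without 4-HPAA replicate 1). Adjusted p-values of single members stayed between 0.999 and 1.00 throughout.

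The direction held in all 17 alternatives for Ugt1a6a, Ugt1a9, Ugp2, Gusb, Abcc2, Abcc3, Ugt1a7c, Ugt1a10 and Ugt2b37, and turned in at least 1 for the other 8 members, both sums, Ugdh and Slc35d1. The log2 fold change of the Ugt1a sum was 0.0008 with DESeq2 and with RLE normalization, 0.0036 with a filter of 10 summed counts, 0.0034 with no filter and 0.056 without saline replicate 2 and 4-HPAA replicate 4, and ran from -0.069 to 0.043 when 1 library was left out. The Ugt2b sum ran from -0.050 to 0.12. Leave-one-out ranges that crossed 0 were -0.038 to 0.12 for Ugt1a1, -0.58 to 0.029 for Ugt1a5, -0.14 to 0.015 for Ugt1a6b, -0.044 to 0.099 for Ugt2a3, -0.070 to 0.20 for Ugt2b1, -0.019 to 0.14 for Ugt2b5, -0.15 to 0.030 for Ugt2b34, -0.071 to 0.093 for Ugt2b36, -0.21 to 0.079 for Ugdh and -0.11 to 0.058 for Slc35d1. Without saline replicate 2 and 4-HPAA replicate 4 the value was 0.13 for Ugt1a1, 0.011 for Ugt1a6b, -0.042 for Ugt2a3, 0.036 for Ugt2b34 and 0.0066 for Ugdh. Without replicate 4 of both groups, an alternative chosen after seeing the data, it was -0.017 for Ugt2a3 and 0.038 for Slc35d1, and with total counts only it was -0.0014 for Ugt2a3. The cause was not tested.

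The replicate numbers were not taken as pairs, because the labels do not say whether equal numbers mark anything shared. Deviations of same-numbered livers correlated at 0.040 to 0.48, 3 of 4 of them over 0.1. Those of livers with unlike numbers correlated at -0.48 to 0.47, and 4 of 8 livers correlated best with their own number. Whether the numbers mark pairs was not tested. With the replicate block, 0 genes were called, with a smallest edgeR adjusted p of 0.118. At an unadjusted p under 0.05 there were 336 genes, against 225 without the block. With the block 0 members were called, and the log2 fold change was -0.0034 for the Ugt1a sum and 0.054 for the Ugt2b sum. The block changed no call.

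With 4 livers a group, the 95% interval ran from 0.455-fold to 1.31-fold for Ugt1a5 and from 0.875-fold to 1.40-fold for Ugt1a9. It was narrower for Ugt1a6a, at 0.818-fold to 1.09-fold. Differences inside a member's own interval are not excluded here, and the power to detect them was not computed.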
